A study of Mus musculus with 13 samples.

Results

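Secretoglobins and their neighbours in airway mucus are the main products of club and goblet cells, and 8 such genes were followed here: the secretoglobins Scgb1a1, Scgb3a1 and Scgb3a2, the club cell cytochrome Cyp2f2, the BPI-fold proteins Bpifa1 and Bpifb1, the mucin Muc5b and the lectin Reg3g. They were taken by symbol, as 8 of the 31053 genes of a single-cell count matrix of mouse lung, and all 8 had UMIs. A UMI marks 1 captured RNA molecule at its end, so counts were not divided by gene length, and no gene's level is set against another gene's as an amount of RNA. A level is given throughout as UMI counts per 1000000 UMIs of the same cells (CPM).

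Scgb1a1, also known as club cell secretory protein or uteroglobin, lies at chr19:9083636-9087958 on the minus strand (GRCm38, GENCODE M21). Scgb3a1, at chr11:49663610-49665118, and Scgb3a2, at chr18:43764289-43767399, are both on the plus strand and encode further small secreted secretoglobins. Cyp2f2, at chr7:27119909-27133660 on the plus strand, encodes the cytochrome P450 that activates naphthalene in mouse club cells. An antisense gene, Gm15883, overlaps it. Bpifa1, also called SPLUNC1, at chr2:154142880-154149219, and Bpifb1, also called LPLUNC1, at chr2:154190818-154220369, both on the plus strand, encode secreted lipid-binding proteins of airway mucus. They lie 41598 bases apart with 1 annotated gene, Bpifa5, between them. Muc5b, at chr7:141839070-141873084 on the plus strand, encodes the gel-forming mucin on which mucociliary clearance of the mouse lung depends, and Reg3g, at chr6:78466269-78468872 on the minus strand, a C-type lectin that binds Gram-positive bacteria.

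The study used C57BL/6 mice to follow eosinophils in lung disease. By their labels, 4 lung samples were Asthma, Control, PPE-emphysema and PPE-recovery. The asthma mouse was sensitized to and challenged with ovalbumin, the emphysema mouse received weekly intratracheal porcine pancreatic elastase (PPE), and the recovery mouse received PPE only once, at an earlier time. Each of these groups was 1 mouse, of an age not stated, whose whole lung was dissociated with protease. A further 9 samples (Acute, Con and emphysema, 3 of each) were not analysed here. The matrix names 7 libraries by number and ties none of them to a sample, so every value below belongs to a library and not to a condition, no condition was compared, and no test was made.

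Club cells are the secretory cells that line the small airways. They secrete secretoglobins, renew the bronchiolar lining and carry cytochromes that activate inhaled toxicants, which is why some toxicants injure them selectively. Goblet cells add gel-forming mucins, and the same lining releases proteins that bind bacteria or lipids. Ciliated cells move the mucus, and basal cells serve as progenitors in the large airways.

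RefSeq starts with upstream sequence (GRCm38.p6) were matched for 5 of the 8 genes, Bpifa1, Bpifb1, Cyp2f2, Reg3g and Scgb3a1. The 250 bases before the start are shown for the 4 of these that were found together in the same cells, as described further on; for Bpifb1, which has entries for 2 starts, the downstream start is shown. Capitals mark matches, on either strand, to the letters TATAAA of a TATA box, TNTTTAC of forkhead factors, CTCAAG of an NKX2-1 core and TGANTCA of AP-1. The letters TTGCNNAA of C/EBP factors were searched as well. The AP-1 match reads the same on either strand and is counted once; no other matches overlapped.
Bpifa1, chr2:154142630-154142879, plus strand: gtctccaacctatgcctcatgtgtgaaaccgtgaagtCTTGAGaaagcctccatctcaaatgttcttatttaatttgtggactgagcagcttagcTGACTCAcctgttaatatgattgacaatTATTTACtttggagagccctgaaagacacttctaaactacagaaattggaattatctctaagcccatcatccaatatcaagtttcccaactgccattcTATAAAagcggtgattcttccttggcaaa
Bpifb1, chr2:154200130-154200379, plus strand: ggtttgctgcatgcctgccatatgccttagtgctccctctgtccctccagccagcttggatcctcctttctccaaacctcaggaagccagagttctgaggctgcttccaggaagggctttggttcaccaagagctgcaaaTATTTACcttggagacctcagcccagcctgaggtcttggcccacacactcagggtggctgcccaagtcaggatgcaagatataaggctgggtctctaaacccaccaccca
Reg3g, chr6:78468875-78469124, minus strand: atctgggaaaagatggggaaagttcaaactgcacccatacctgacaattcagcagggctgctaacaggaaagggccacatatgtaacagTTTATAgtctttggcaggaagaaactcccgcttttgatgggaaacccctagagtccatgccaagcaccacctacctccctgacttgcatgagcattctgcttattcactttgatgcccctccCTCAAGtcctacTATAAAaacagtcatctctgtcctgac
Scgb3a1, chr11:49663345-49663594, plus strand: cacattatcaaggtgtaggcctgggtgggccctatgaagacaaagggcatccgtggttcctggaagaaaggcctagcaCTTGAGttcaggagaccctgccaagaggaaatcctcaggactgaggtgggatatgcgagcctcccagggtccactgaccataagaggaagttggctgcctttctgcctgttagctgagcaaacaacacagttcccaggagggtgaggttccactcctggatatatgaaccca

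Counted back from the start, Bpifa1 held TATAAA at -29 to -24 and TATTTAC at -127 to -121. It also held TGACTCA at -155 to -149 and the reverse complement of CTCAAG at -213 to -208. Bpifb1 held TATTTAC at -110 to -104. Reg3g held TATAAA at -27 to -22, its reverse complement TTTATA at -161 to -156 and CTCAAG at -39 to -34. Scgb3a1 held the reverse complement of CTCAAG at -172 to -167. The upstream start of Bpifb1 and the window of Cyp2f2 held none of the 5 patterns. Of 32851 windows of this length, 12.4% held TATAAA, 10.9% TNTTTAC, 13.3% CTCAAG, 9.56% TTGCNNAA and 6.75% TGANTCA. A match is a description of letters and was not tied to any binding.

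Libraries 1, 2, 3 and 7, which hold lung epithelium, had 24344 barcodes and between 34606626 and 79439569 UMIs each, with medians of 5792.5 to 7189 UMIs per barcode. Some 0.264% of the 24280 barcode sequences were found in more than 1 of these libraries. Libraries 4, 5 and 6 held 17, 7 and 4 UMIs of Scgb1a1, library 6 held 1 UMI each of Scgb3a1 and Scgb3a2, and the other genes had 0 there. With at most 10% mitochondrial UMIs, 20856 barcodes of the 4 libraries were kept. They were clustered without the 8 genes, and clusters were named from other markers. Intervals are exact at 95%, and they and all limits cover counting error only.

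Airway secretory-like cells numbered 146, or 0.700% of kept cells (95% interval 0.591 to 0.823). Library 1 had 37 (0.771%), library 2 had 50 (0.656%), library 3 had 54 (1.05%) and library 7 had 5 (0.151%). They formed 4 clusters, in which 12 markers of airway secretory cells summed to between 7185 and 10836 CPM. The same markers summed to 9349 and 9314 CPM in the ciliated-like clusters and 7151 in the basal-like cluster, so their sum alone does not set the classes apart. Ciliated markers summed to 12112 and 10383 CPM in the ciliated-like clusters and to at most 2089 in the secretory-like ones, and basal markers to 3898 CPM in the basal-like cluster and at most 15.5 in the secretory-like ones. The name rests on a second clustering of the airway cells, a step chosen after seeing the data: without it no cluster was named secretory-like, and the number of such cells was 0. Dissociation and capture set how many cells of a type reach a library, so these shares are not shares of the lung.

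The 8 genes together took 84.7% of their UMIs from these 146 cells, and 46.7% at a mitochondrial limit of 5%. Both are shares of their UMIs in all barcodes, including those over the limit. Leukocytes, 14222 cells, held 2.36%, alveolar-like cells 2.48%, ciliated-like and basal-like cells 1.59%, endothelial-like, mesenchymal-like and other named cells 2.14%, and barcodes over the mitochondrial limit 6.57%. Cyp2f2 was the least concentrated, with 65.9% in secretory-like cells and 16.7% in ciliated-like and basal-like cells. Bpifa1 had 23.1% of its UMIs in barcodes over the mitochondrial limit, and Bpifb1 slightly more. Among kept cells alone, secretory-like cells held between 75.4% (Cyp2f2) and 97.9% (Bpifb1) of each gene's UMIs.

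Of the 8 genes, 7 had their highest level of all named classes in secretory-like cells, where 53 of 13827 genes with at least 200 UMIs (0.383%) did. Scgb1a1 reached 515318 CPM there, 28.0 times the level of ciliated-like cells, the next class. The level and rank of that next class were set by 1 cell, which held 34089 of its 36646 UMIs. Without this cell ciliated-like cells were at 1341 CPM. Scgb3a1 reached 12928 and Scgb3a2 13137 CPM, 88.6 and 39.3 times their next classes. Muc5b reached 408 CPM, with 2 UMIs in the next class, an unnamed cluster. Bpifb1 reached 1035 CPM, with 3 UMIs in basal-like cells. Bpifa1, with 3585 against 668 CPM, and Reg3g, with 1226 against 116, had basal-like cells next, at a smaller distance. Because the 8 genes took so much of a secretory cell's RNA, other genes had only 44.7% of its UMIs. Counted per UMI of other genes, all 8 were highest in secretory-like cells, where 2.16% of all genes were.

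**Figure D1:**
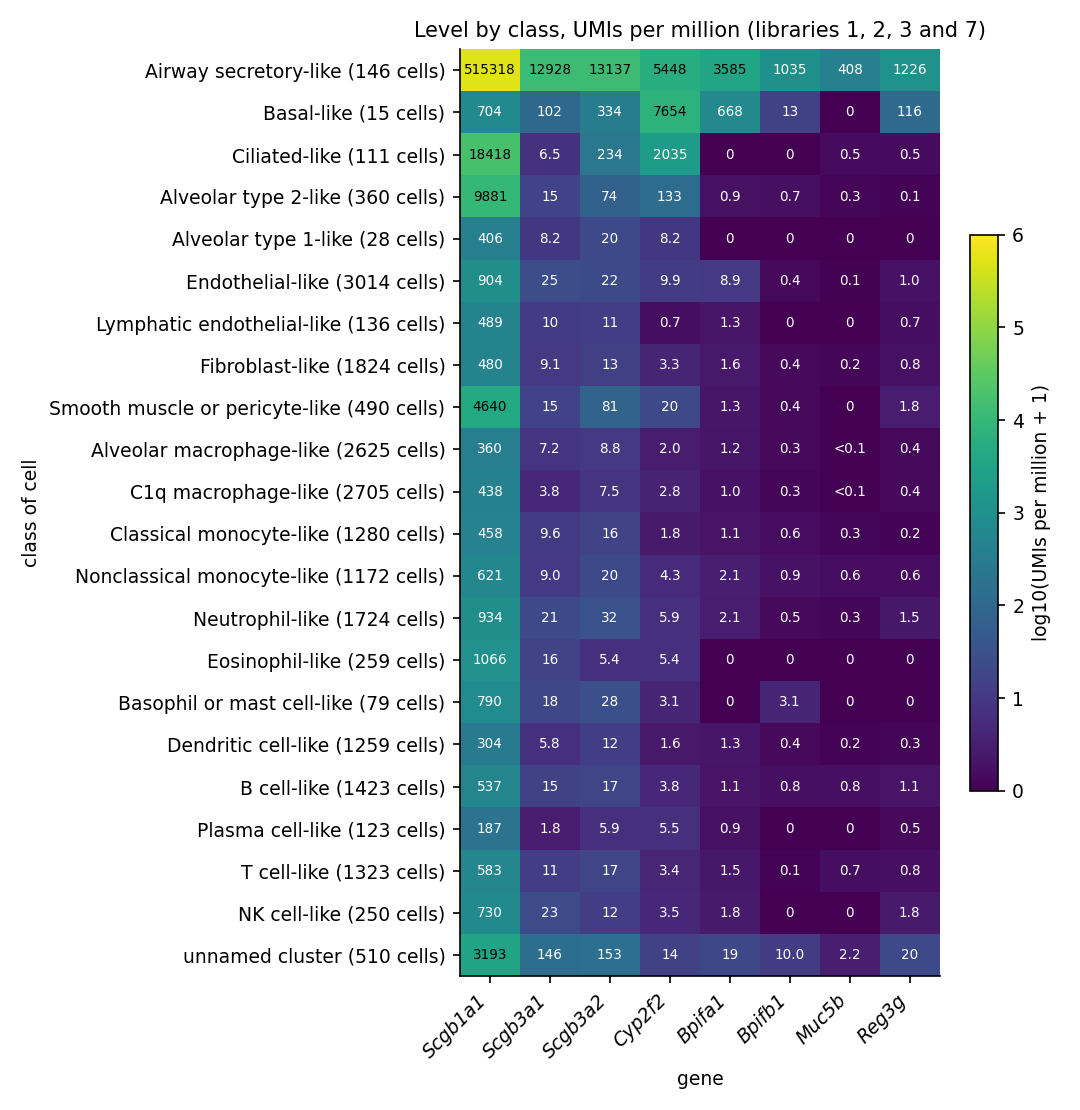
Level of the 8 genes in each class of cell over libraries 1, 2, 3 and 7, with colour as log10 of CPM plus 1 and the level in CPM printed in each cell of the grid. The top row, the 146 airway secretory-like cells, is highest for every gene except Cyp2f2, which has 7654 CPM in basal-like and 5448 in secretory-like cells.

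Cyp2f2 was the exception. Its level was 7654 CPM in 15 basal-like cells, 5448 in secretory-like cells and 2035 in 111 ciliated-like cells. By library, the basal-like cells had 7953, 3527, 9806 and 2303 CPM in libraries 1, 2, 3 and 7, from 2, 3, 9 and 1 cells. In secretory-like cells the values were 3992, 5821, 5695 and 5565. In CPM of all UMIs, basal-like cells were thus above secretory-like cells in libraries 1 and 3 and below them in libraries 2 and 7. Per UMI of other genes they were above them in library 1 only. In library 3 the 8 genes summed to 592584 CPM in secretory-like and 11181 in basal-like cells. Ciliated-like cells were even across libraries, with 2110, 2351, 1640 and 1932 CPM.

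Every one of the 15 basal-like cells had Cyp2f2, with 6 to 304 UMIs and a median of 99, and all 74 cells of the larger ciliated-like cluster had it, with 3 to 129 and a median of 30. Alveolar type 1-like cells had 2 UMIs of it in 28 cells, or 8.20 CPM. Relative to Scgb1a1, ciliated-like cells with under 2% of their UMIs from Scgb1a1 had 142 UMIs of Cyp2f2 per 100 of Scgb1a1, and with the 1 cell above that share included the ratio was 11.1. Secretory-like cells, with none left out, had 1.06 and leukocytes 0.603. In basal-like cells the ratio was 1087 per 100. The part of free RNA in these values was not tested.

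Basal-like cells also had the next highest level of Bpifa1 and Reg3g. Bpifa1 had 34, 108, 8 and 0 UMIs in the basal-like cells of libraries 1, 2, 3 and 7, and was found in 7 of the 15 cells, of which 1 held 107 of the 150 UMIs. Reg3g had 15, 1, 10 and 0 UMIs, in 5 cells, of which 1 held 13 of the 26. Muc5b had 0 UMIs in all 15 cells, which allows up to 13.4 CPM. In the 111 ciliated-like cells Bpifa1 and Bpifb1 were at 0, and Muc5b and Reg3g had 1 UMI each.

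Single barcodes fell far apart in Scgb1a1. In 183 of the 24344 barcodes it took 5% or more of all UMIs, and these held 95.9% of its UMIs. In library 1 there were 48, in library 2 there were 49, in library 3 there were 73 and in library 7 there were 13. Their shares ranged from 5.27% to 79.4%, with a median of 50.6%. A further 36 barcodes lay between 2% and 5%. The mitochondrial limit kept 155 of the 183, of which 136 were classed as secretory-like.

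The study's methods state a filter that keeps barcodes within 2 standard deviations of the mean number of UMIs and genes, which put the upper limits at 24658 UMIs and 5325 genes. Only 82 of the 183 passed these limits together with the mitochondrial limit, which alone kept 155. The cells were for this reason analysed without the limits on UMIs and genes, a choice made after these counts were seen. Under the limits 69 secretory-like cells were left, and they held 6.35% of the 8 genes' UMIs in place of 84.7%. Both are shares of the UMIs in all barcodes, so the first counts those that the limits removed and is not a share of what was left. Cells with such totals may include doublets. Scrublet, which scores cells against simulated doublets, called 9 of the 146.

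**Figure D2:**
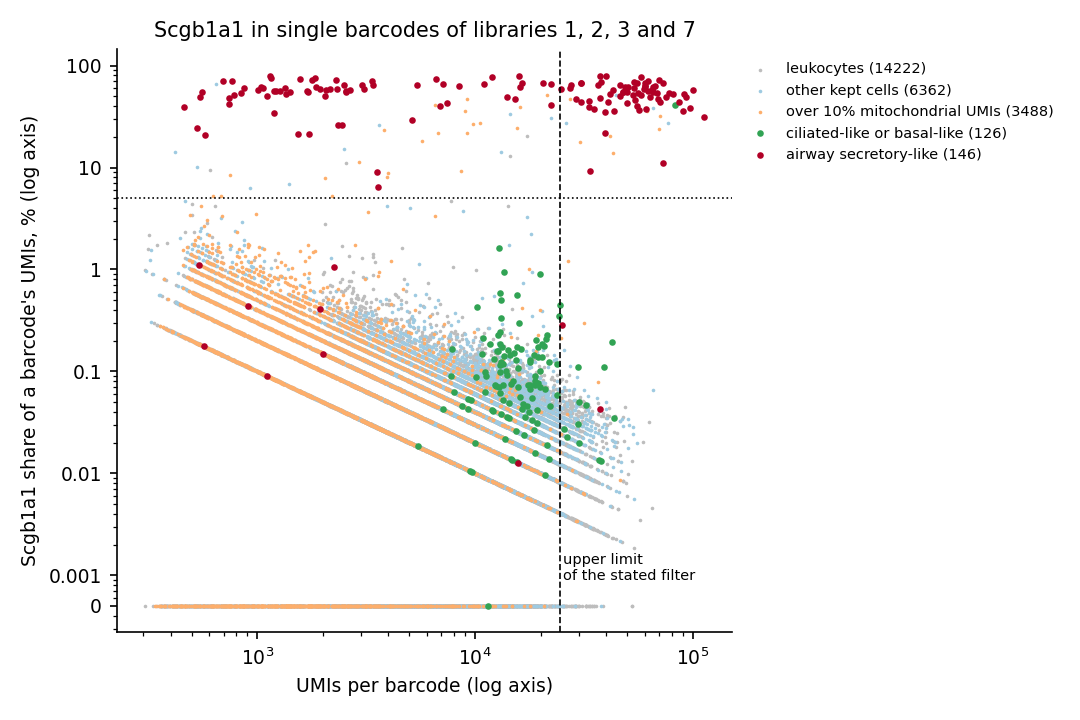
Scgb1a1 as a share of each barcode's UMIs (log axis) against the barcode's total UMIs (log axis) for the 24344 barcodes of libraries 1, 2, 3 and 7, coloured by class. The dotted line marks 5% and the dashed line the upper limit of the stated filter, 24658 UMIs; most secretory-like cells lie above 5%, many of them to the right of the dashed line, while leukocytes form bands that start at 1 UMI.

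The lower tail of the secretory-like class was of another kind. In 10 of the 146 cells, 9 of library 2 and 1 of library 1, Scgb1a1 took 0.0127% to 1.11% of UMIs. In 9 of these 10 the 8 ciliated markers summed to 500 CPM or more, and 5 had a UMI of Foxj1, the regulator of motile cilia. Of the other 136 cells, 20 reached that sum. With all 29 such cells left out, 117 secretory-like cells remained, and 7 of the 8 genes were still highest there. They held 63.4% of the 8 genes' UMIs in all barcodes, those of the 29 cells included.

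Secretory-like cells formed 4 clusters. Cluster 42 (56 cells, median 51973 UMIs) was led by Cbr2, Hp, Retnla and Cldn10. Cluster 47 (21 cells, median 48958 UMIs; 3, 12 and 6 in libraries 1, 2 and 3) was led by Tff2, a trefoil peptide of mucous cells, Clca1, a goblet cell protein, Lypd2, Pigr and Ltf. Clusters 43 (48 cells) and 46 (21 cells, of which 20 in library 1) were shallow, with medians of 2026.5 and 1418 UMIs. The 6 goblet markers summed to 3900 CPM in cluster 47 and to 63.1 in cluster 42. Of the 21 cells of cluster 47 only 1 lay within the stated limits, as did 9 of the 56 cells of cluster 42. Scrublet called 0 cells of cluster 47 and 6 of cluster 42.

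Between the clusters of high median depth, 5 genes were far higher in cluster 47. Bpifa1 had 13550.2 CPM in cluster 47 and 3.97 in cluster 42, a ratio of 3415 (95% interval 1908 to 6843). Bpifb1 had 3736 against 44.4 CPM, 84.2 times as much. Scgb3a1 had 45099 against 690 CPM, 65.4 times as much, and Muc5b 1390 against 46.5, 29.9 times as much. Reg3g had 5061 UMIs in cluster 47 and 0 in the 56 cells of cluster 42, so it was at least 4252-fold higher against the limit of 3 counts, with an exact 95% lower bound of 3457.

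The other 3 genes differed little or less. Scgb3a2 had 26594 against 7906 CPM, 3.36 times as much. Cyp2f2 had 6416 against 5290, a ratio of 1.21, and Scgb1a1 436320 against 558239, a ratio of 0.782. Among 8625 genes with at least 20 UMIs in the clusters together, 7.83% were at least 2-fold higher in cluster 47 and 10.8% at least 2-fold lower; 6 of the 8 genes were 2-fold higher and 0 lower. The clusters were made from other genes of the same cells, so this is a description of where the 8 genes lie and not a test. Markers of other cells differed in both directions. Ciliated markers summed to 1163 CPM in cluster 42 and 412 in cluster 47, alveolar type 2 markers to 982 and 139, and neutrophil markers to 372 and 24.5. Classical monocyte markers summed to 30.7 and 140.002 CPM, mesothelial markers to 34.3 and 123, and eosinophil markers to 0.361 and 46.4. The median cells of clusters 42 and 47 had 18.0 and 20.6 CPM of ciliated markers. They had 276 and 130 of alveolar type 2 and 21.8 and 18.1 of neutrophil markers. For the other lists named here the median cell had 0 in both clusters. The part of other cells in the differences was not tested.

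The direction was the same in each of libraries 1, 2 and 3 for these 6 genes. Scgb3a1 was 53.6, 75.4 and 131 times as high in cluster 47 in libraries 1, 2 and 3. Scgb3a2 was 4.15, 3.02 and 3.56 times as high, and Bpifb1 66.3, 59.9 and 192 times. Muc5b was 37.4, 24.9 and 28.4 times as high. Reg3g had 0 UMIs in cluster 42 in each library. Cyp2f2 was lower in cluster 47 in library 1 (ratio 0.867) and higher in libraries 2 and 3 (1.14 and 1.43).

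In single cells of cluster 47, Scgb3a1 took 0.968% to 11.4% of UMIs (median 4.85%) and Muc5b 0.0108% to 0.451% (median 0.131%), and both were found in all 21 cells. Bpifb1 was found in 20, Reg3g in 19 and Bpifa1 in 18 of the 21. Bpifa1 ranged from 0 to 4833 UMIs per cell with a median of 93. In cluster 42, Scgb3a1 was found in 25 of 56 cells, Muc5b in 19, Bpifb1 in 10, Bpifa1 in 7 and Reg3g in 0, at a similar median depth. Cyp2f2 was found in all cells of both clusters, and Scgb3a2 in 53 of the 56 and all of the 21.

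The shallow clusters gave less. In cluster 46 Bpifa1, Bpifb1 and Reg3g had 0 UMIs, which allows up to 95.4 CPM each, Scgb3a1 had 1 UMI and Scgb3a2 was at 2035 CPM. Cluster 43 had all 8 genes, with Scgb3a2 at 13312 and Scgb3a1 at 9115 CPM. By library it ranged widely: Scgb3a1 had 0 UMIs in library 1, 1072 CPM in library 2, 24723 in library 3 and 110738 in the single cell of library 7. That cell alone held 26 UMIs of Reg3g and 21 of Bpifb1. The 10 secretory-like cells of low Scgb1a1 described above all lay in cluster 43. Of these, 9 were of library 2, which had 14 cells in the cluster, so its value mixes kinds of cells. Their part in the range was not tested.

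**Figure D3:**
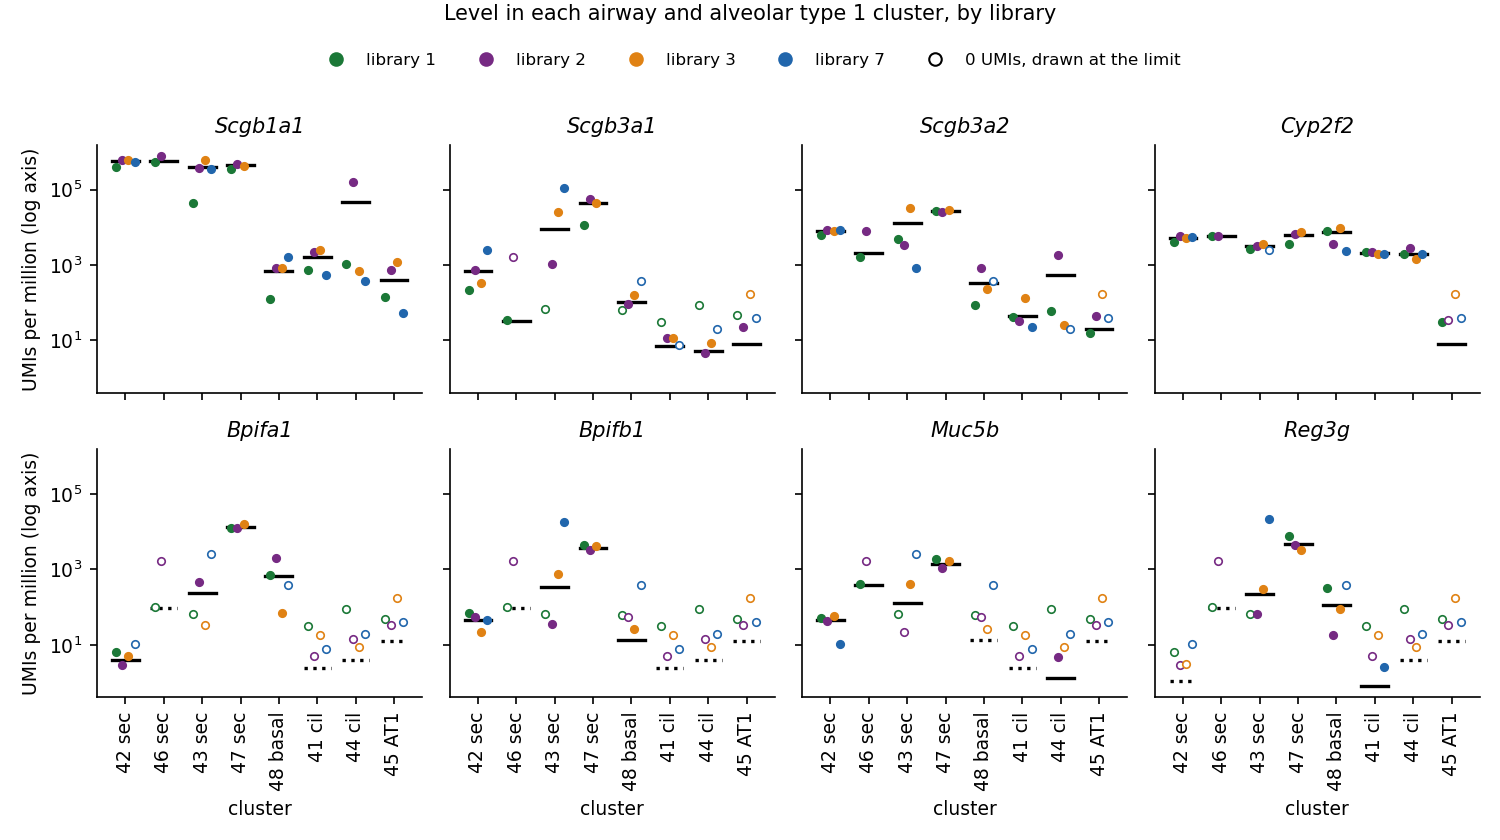
Level of each gene in the 4 secretory-like clusters (42, 46, 43 and 47), the basal-like cluster 48, the ciliated-like clusters 41 and 44 and the alveolar type 1-like cluster 45, in CPM on a log axis. Bars are sums over the libraries and points are libraries; open points and dotted bars stand for 0 UMIs and are drawn at the limit of 3 counts. Scgb3a1, Bpifa1, Bpifb1, Muc5b and Reg3g are highest in cluster 47 (45099, 13550.2, 3736, 1390 and 4601 CPM), while Scgb1a1 is near the top in all 4 secretory-like clusters.

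The same 5 genes were found together in single cells. In 117 secretory-like cells thinned to 1500 UMIs, pairs of the 8 genes were counted against the number expected if they were detected independently within each library. Of 28 pairs, 10 were found together more often than expected, judged by an exact Poisson interval, and 0 less often. The 10 were the pairs among Scgb3a1, Bpifa1, Bpifb1, Muc5b and Reg3g. Bpifa1 and Reg3g shared 13 cells where 3.32 were expected, and Bpifb1 and Reg3g shared 22 where 6.70 were expected. All 30 cells with Bpifb1 and all 23 with Reg3g had Scgb3a1 as well. No pairs of other genes were counted, so the 10 of 28 cannot be read as a trait of the 8 genes. The cells were pooled over the secretory-like clusters, between which these 5 genes differ, and no count was made within a cluster. The result therefore does not stand apart from the difference between clusters.

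Pairs with Scgb1a1, Scgb3a2 or Cyp2f2 lay within their intervals. These genes were found in 115, 107 and 109 of the 117 cells, so little more than the expected overlap was possible. With Scgb1a1 set aside and the other UMIs thinned to 500 in 127 cells, 10 of 21 pairs were above, and without thinning 10 of 28. Under the stated limits on UMIs and genes, 43 cells could be thinned and 0 pairs were above, while the same 10 pairs had 1.75 to 4 times the expected number, from 1 to 11 cells each.

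**Figure D4:**
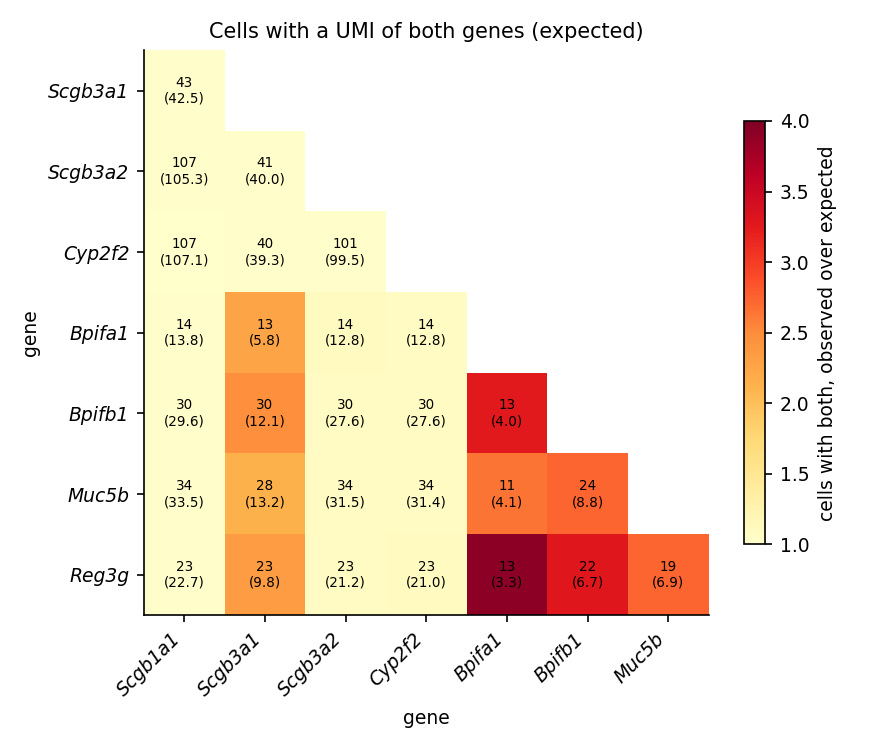
Number of the 117 thinned secretory-like cells with a UMI of both genes of a pair, with the number expected under independent detection in parentheses and colour as observed over expected. The block of darker squares holds the 10 pairs among Scgb3a1, Bpifa1, Bpifb1, Muc5b and Reg3g, up to 3.91 times the expected number for Bpifa1 and Reg3g.

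By library, Scgb1a1 in secretory-like cells was 373338, 538842, 553306 and 536862 CPM in libraries 1, 2, 3 and 7. In these sums over cells library 1 was the lowest, and the other 3 lay close together. Scgb3a2 was 10805, 13720, 14547 and 8322, with library 7 lowest. Scgb3a1 was 2848, 18809, 12670 and 2980, so libraries 1 and 7 lay far below libraries 2 and 3.

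Muc5b was 494, 373, 488 and 10.6 CPM, and its 3 UMIs in library 7 came from 3 cells. Bpifb1 was 1093, 1095, 1112 and 120. Bpifa1 was 2838, 4186 and 3927 in libraries 1, 2 and 3, with 0 UMIs in library 7, which allows up to 10.6 CPM. Reg3g was 1811, 1482, 838 and 91.9. In these sums library 7, which had no cell of cluster 47, was the lowest in all 4 genes.

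A few cells set several of these levels. In library 1, the highest cell for each gene held 99.9% of the 2028 UMIs of Bpifa1, 94.6% of those of Bpifb1 and all 1294 of Reg3g. In library 3, 1 cell held 86.9% of Bpifa1. In library 7, all 26 UMIs of Reg3g came from 1 cell. Over all libraries, 6 cells held 90% of the UMIs of Bpifa1, 12 those of Reg3g and 14 those of Bpifb1, while 64 cells were needed for Scgb1a1 and 63 for Cyp2f2. With every cell weighted equally, Scgb3a1 in library 7 was 23678 CPM, above library 2 (16660.2), where the sum over cells was 2980, below it. Library 7 was then also the highest in Bpifb1, with 3551 CPM against 401, 1059.95 and 970.2 in libraries 1, 2 and 3, and in Reg3g, with 4362 against 479, 1523 and 689.95. These values of library 7 average 5 cells and were set mostly by its 1 cell of cluster 43. That cell held all 26 UMIs of Reg3g and 21 of the 34 of Bpifb1, and Scgb3a1 took 11.1% of its UMIs. Under the same weighting Scgb1a1 was 443942, 450760, 582087 and 504466 CPM in libraries 1, 2, 3 and 7, so libraries 1 and 2 lay close together.

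Between libraries 1 and 2, 1 of the 8 genes, Scgb3a1, was at least 2-fold apart in secretory-like cells, as were 22.4% of the genes with at least 20 UMIs in the pair. Between libraries 1 and 3 it was 2 of the 8 (25.1% of genes), and between libraries 2 and 3 it was 0 (7.22%). Library 7 differed at least 2-fold from library 1 in 4 (31.7%), from library 2 in 5 (18.7%) and from library 3 in 5 (19.4%). All these counts are of sums over cells. With every cell weighted equally, libraries 2 and 3 were over 2-fold apart in Scgb3a2 (11602 and 26396 CPM), Bpifa1 (4270 and 1189) and Reg3g (1523 and 690). The rest of the 8 genes were less than 2-fold apart, and no share of all genes was taken under that weighting. Which mouse gave which library is not known, nor is the spread between mice of 1 condition, and these counts cannot be read as effects of a condition.

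The 8 genes were also found in leukocytes, which are not known to express them, at a summed level of 472 CPM. Scgb1a1 made up most of it, with 447 CPM: 279, 524, 745 and 255 in libraries 1, 2, 3 and 7. The secretory-like level was 1153 times the leukocyte level. Over the libraries together the ratio was 1599 for Scgb3a1, 1057 for Scgb3a2, 2021 for Cyp2f2, 2845 for Bpifa1, 2523 for Bpifb1, 2064 for Muc5b and 2461 for Reg3g. By library it varied more, for Scgb3a2 from 448 in library 3 to 4390.06 in library 7 and for Scgb3a1 from 645 to 4323. In library 7 Bpifa1 had 0 UMIs in secretory-like cells and 3 in leukocytes. Bpifb1, Muc5b and Reg3g had only 56, 27 and 68 UMIs in all 14222 leukocytes.

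Libraries with a higher sum of the 8 genes, most of it Scgb1a1, had a higher sum in leukocytes. Not every single gene followed this order. Cyp2f2 was 85.0 and 99.3 CPM over all barcodes of libraries 1 and 7, and 2.10 and 1.31 CPM in their leukocytes. Over all barcodes the 8 genes summed to 7194, 14332, 21457 and 6060 CPM in libraries 1, 2, 3 and 7, and in leukocytes to 290.2, 553, 807 and 259, the same order. With the leukocytes of over 2% Scgb1a1 left out, the values were 221, 553, 777 and 136, and the order held. There were 15 such leukocytes, and they held 10.9% of all leukocyte UMIs of the 8 genes and 47.6% of those in library 7.

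**Figure D5:**
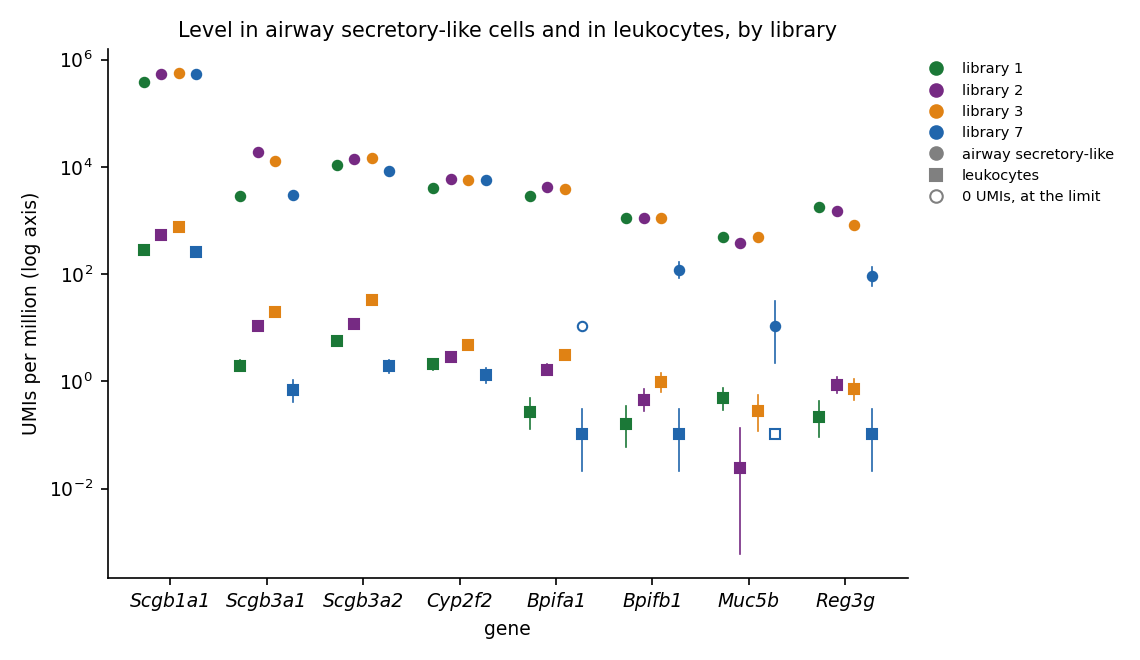
Level of each gene in airway secretory-like cells (circles) and leukocytes (squares) of libraries 1, 2, 3 and 7, in CPM on a log axis, with exact 95% intervals where they exceed the symbol. Open symbols stand for 0 UMIs and are drawn at the limit of 3 counts. Leukocytes lie far below secretory-like cells, for Scgb1a1 at 255 to 745 CPM, except for Bpifa1 in library 7, which has 0 UMIs in secretory-like cells and 3 in leukocytes.

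As background, free RNA in a droplet adds counts whatever the depth of the cell in it. Scgb1a1 in leukocyte classes ran from 187 CPM in plasma cell-like cells (median 15847 UMIs) to 1066 in eosinophil-like cells (median 568 UMIs). Per cell the order was other: eosinophil-like cells had 0.757 UMIs, T cell-like cells 3.84 and alveolar macrophage-like cells 5.63. These values mix libraries, and 211 of the 259 eosinophil-like cells were of library 7. In library 7 alone the values were 0.536, 0.878 and 1.83 UMIs per cell. Within each library, the 4 depth groups of leukocytes had a falling level from the shallowest to the third and a rising count per cell from the second to the deepest. In library 3 the level fell from 2014 to 497 CPM and the count per cell rose from 4.65 to 8.53.

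A UMI of Scgb1a1 was found in 46.4% of the 13239 leukocytes that could be thinned to 1500 UMIs, from 20.9% in library 7 to 67.4% in library 3. For the other genes the share over all libraries was at most 2.47% (Scgb3a2), which in library 3 was 5.83%. Of secretory-like cells thinned in the same way, 98.3% had Scgb1a1, 93.2% Cyp2f2, 91.5% Scgb3a2, 36.8% Scgb3a1, 29.1% Muc5b, 25.6% Bpifb1, 19.7% Reg3g and 12.0% Bpifa1. Before thinning, medians were 7731.5 UMIs in leukocytes and 18457 in secretory-like cells. All 8 shares lay above those of leukocytes.

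Set against Scgb1a1, leukocytes had 2.78 UMIs of Scgb3a2 per 100 of Scgb1a1 over all libraries, and secretory-like cells 2.55. By library, leukocytes had 2.05, 2.27, 4.35 and 0.744, and secretory-like cells 2.89, 2.55, 2.63 and 1.55, so the order differed between libraries. For Scgb3a1 the ratios were 1.81 and 2.51, for Cyp2f2 0.603 and 1.06 and for Bpifa1 0.282 and 0.696. By library, Scgb3a1 in leukocytes had 0.703, 2.05, 2.63 and 0.271 per 100, and in secretory-like cells 0.763, 3.49, 2.29 and 0.555, low in libraries 1 and 7 in both. Barcodes over the mitochondrial limit, which hold part of the damaged cells, had 6.33 of Scgb3a2 per 100, by library 7.47, 1.63, 9.01 and 1.04, above secretory-like cells in libraries 1 and 3 and below them in libraries 2 and 7. They had 3.09 of Bpifa1 per 100, by library 0.0133, 1.83, 7.63 and 0. A few barcodes set these ratios. The 3449 of the 3488 with under 2% Scgb1a1 held only 12105 of the 151019 UMIs of Scgb1a1. In those 3449 the ratios were 3.47 for Scgb3a2 and 0.694 for Bpifa1.

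Signal in other classes was uneven. In alveolar type 2-like cells Scgb1a1 had 9881 CPM, but 6 of 360 cells held 61122 of its 66171 UMIs. Without cells at 2% or more it was 526 CPM, and in leukocytes under the same limit 397 CPM. Per cell these were 9.72 and 3.81 UMIs, at medians of 17463 and 7742 UMIs. In ciliated-like cells 1 cell held 34089 of 36646 UMIs, and without it the level was 1341 CPM. Smooth muscle or pericyte-like cells had 4640 CPM, of which 1 cell held 22701 of 25617 UMIs. Cells of this kind were not counted as secretory-like.

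Over the 49 clusters of the 4 libraries, the genes whose pattern was most like each of the 8 were found by Pearson's r of log2 of the level plus 1, among 13819 genes. The clusters share libraries and free RNA, and r is given as a description. Scgb1a1 was like Cckar (0.933) and Gabrp (0.919), and Cyp2f2 most like Lypd2 (0.947), Slc16a11 (0.942) and Sox2 (0.938), the last a factor of airway epithelium. Scgb3a1 and Bpifb1 were both most like Tff2 (0.898 and 0.885), followed by Clca1. Reg3g was most like Clca1 (0.848), Bpifa1 most like Aldh3a1 (0.813), Muc5b most like Chad (0.947) and Scgb3a2 most like Tff2 (0.898). Among the 8, Scgb3a1 and Bpifb1 had an r of 0.941, Scgb1a1 and Scgb3a2 of 0.938, and Bpifa1 and Reg3g of 0.919, while Scgb1a1 and Bpifa1 had the lowest, 0.442.

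For 86 related genes in 7 lists the same count was made, where 0.383% of all genes with at least 200 UMIs were highest in secretory-like cells. Among 4 other secretoglobins, Scgb1c1 was highest in secretory-like cells, with 72.0 CPM, and the other 3 had no UMIs in kept cells. Of 7 BPI-fold relatives 0 were highest there and 4 had no UMIs. Lbp, which binds bacterial lipopolysaccharide, was highest in lymphatic endothelial-like cells (467 CPM). Of 6 other Reg genes, 5 had no UMIs and Reg4 had 2 in kept cells, so Reg3g was the only one of the family with a level.

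Of 16 mucin and goblet genes 9 were highest in secretory-like cells, among them Tff2 (548 CPM), Clca1 (437), Agr2 (62.7) and Muc5ac (8.37). Of the 6 with at least 200 UMIs in kept cells, 3 were highest there, Tff2, Clca1 and Agr2. Muc5ac, the other gel-forming mucin of the airways, had 35 UMIs in the 146 cells, 29 of them in cluster 47, and Muc5b 1706. Muc1, a membrane mucin, was highest in alveolar type 2-like cells (789 CPM). Clca1 was 1896, 124, 126 and 258 CPM in secretory-like cells of libraries 1, 2, 3 and 7, highest in library 1. Of its 1825 UMIs there, 1752 lay in cluster 47, which had only 3 cells in library 1. The 73 UMIs of library 7 came from its 1 cell of cluster 43. Agr2, which helps to fold mucins, was 141, 59.5 and 38.8 CPM in libraries 1, 2 and 3, and Fcgbp, a mucus protein, 157, 16.4 and 10.6, each with 1 UMI in library 7. Cluster 47 held 256 of the 262 UMIs of Agr2 in secretory-like cells and 150 of the 157 of Fcgbp.

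Of 18 antimicrobial and protective genes 5 were highest in secretory-like cells, including Ltf (339 CPM), Pigr (479), Wfdc2 (5226) and Hp (3230). Chil3, a macrophage protein, had 900, 579, 23 and 28 UMIs in secretory-like cells of libraries 1, 2, 3 and 7, and its pooled level of 366 CPM lay below the leukocyte level of 15173. S100a9, a neutrophil protein, was likewise at 118 CPM against 2137 in leukocytes, with 23, 178, 290 and 2 UMIs by library. Cluster 43 held 1246 of the 1530 UMIs of Chil3 in secretory-like cells, and cluster 42 held 456 of the 493 of S100a9. Alveolar macrophage markers summed to 1034 CPM in cluster 43. The part of free RNA or of other cells in these levels was not tested. Chil4, a chitinase-like protein, had 5, 27, 14 and 77 UMIs by library, and 0.879 CPM in leukocytes. Library 7 had secretory-like cells only in clusters 42 and 43, and cluster 42 had 3 UMIs of Chil4 in all. Nearly all of the 77 thus came from the 1 cell of cluster 43 in library 7. Of 22 xenobiotic enzymes 4 were highest in secretory-like cells CPM of all UMIs and 12 CPM of other genes. Of 13 genes listed as transcription factors, among them the receptor Notch2, 0 were highest there in CPM of all UMIs. Sox2 was highest in basal-like cells (303 CPM), as was Trp63 (481), a basal cell factor with 0 UMIs in secretory-like cells, and Foxj1 in ciliated-like cells (827).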

How the data were processed

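The authors' deposited file holds UMI counts per gene and barcode, whole numbers that were not normalized. The study's methods state Cell Ranger with STAR and down-sampling of reads to a like depth; the matrix header gives Cell Ranger 3.1.0, and the submitters' processing notes name mm10. Such down-sampling lowers all counts of a library alike. No column of per-sample values is tied to a sample, so the matrix was used as 1 pooled sample and library numbers were not assigned to groups.

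Barcodes of libraries 1, 2, 3 and 7 with at most 10% mitochondrial UMIs were kept. The 8 genes were left out, and counts were scaled to 10000 and log-transformed. Over the 2000 most dispersed genes, each cell's centred values were scaled to unit length, and 30 principal components were taken from them. Mutual nearest neighbors aligned the libraries, and a graph of 20 neighbors was built and clustered with leidenalg 0.10.2 and python-igraph 0.11.9 at a resolution of 0.8. Airway and alveolar type 1 clusters were clustered again (10 neighbors, resolution 1.0, no alignment). Clusters were named from 25 marker lists, with the goblet and airway secretory lists merged into 1 class. The second clustering, this merger and the base without limits on UMIs and genes (which changed places with the limits) were chosen after seeing the data. The members and lists were chosen with earlier results of these data known.

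All 8 genes are named. Of the related genes the text names some from each list, and by library the 5 with the largest fold between libraries and at least 100 UMIs in secretory-like cells, Chil3, Fcgbp, Agr2, Chil4 and S100a9; Clca1 was added after its values were seen, as was the pair of clusters 47 and 42. For likeness, the 3 other genes of highest r with at least 200 UMIs were found for each of the 8. Some of these are not reported here. Doublets were scored with Scrublet in scanpy 1.11.5, which called 104, 428, 128 and 33 cells in libraries 1, 2, 3 and 7; called cells were kept in the base setting. Where a gene had 0 UMIs, the limit given is that of 3 counts. Library ratios have exact conditional binomial intervals. Scripts ran under Python 3.11.15, numpy 2.4.6, scipy 1.17.1, pandas 2.3.3 and matplotlib 3.10.9. Of the matrix's 31053 identifiers 30934 were found in GENCODE M21. Checked on 1780 simulated cells, the procedure gave every cell of 5 classes its class, and 95.8% of Poisson intervals held the true value. Each simulated class was drawn from 1 pooled profile of barcodes chosen by markers, some of them naming markers, with no doublets and no basal-like cells. The check therefore cannot show how well the real cells were classed.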

Additional observations from a re-analysis of the deposited data

How the results depend on the processing

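No paired analysis was possible because library numbers are tied to no sample and no test was made. Counts of 146 secretory-like cells and 7 genes highest there held within 1.5 times under Scrublet, alignment, resolution (0.4 and 1.5) and clustering with the 8 genes. Without the second clustering no cluster was named secretory-like, so the cells, the share and the number of genes highest there were all 0. Under the stated limits there were 69 cells with 6.35% of the 8 genes' UMIs, 518 CPM in leukocytes, 27 rather than 17 of 48 library comparisons at least 2-fold apart, and 0 rather than 10 pairs found together, at 1.75 to 4 times the expected number in 43 cells. The share of all genes at least 2-fold apart was not taken under these limits, so the 27 cannot be read as a trait of the 8 genes. The share of 84.7% became 79.5% with the 8 genes used for clustering, 46.7% at a mitochondrial limit of 5%, 78.0% without Scrublet calls, 86.0% with an aligned second clustering and 63.4% without cells of high ciliated markers. These shares, and the 6.35%, were taken of the 8 genes' UMIs in all barcodes, including those that a setting left out. The leukocyte level of 472 CPM became 442 with the 8 genes used, 498 at 5%, 484 for cells with Ptprc and no Epcam, Cdh1, Krt8 or Krt18, 346 without cells of 10 or more UMIs of the 8 genes and 421 without those over 2% Scgb1a1. Leaving out each library in turn gave 92 to 141 cells, shares of 80.5% to 86.0%, leukocyte levels of 383 to 541 and 8 to 10 pairs found together; 96 cells were left without library 2 and 92 without library 3, each over 1.5 times fewer. Of 96 levels of single genes in secretory-like cells, 3 moved by over 1.5 times: Bpifa1 to 521 CPM under the stated limits, and Bpifb1 to 662 and Reg3g to 493 at a mitochondrial limit of 5%. Of 96 leukocyte levels 6 did: without library 3 Scgb3a1 went to 5.003, Scgb3a2 to 7.07, Bpifa1 to 0.761 and Bpifb1 to 0.260 CPM, and Muc5b became 0.0906 without library 1 and 0.120 at a mitochondrial limit of 5%. The cause was not tested. Depth limits what a 0 shows in clusters 43 and 46 and in the 5 cells of library 7.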

Other observations

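Cluster 47 differed from cluster 42 in related genes other than the 8. Gsto1, a glutathione transferase, was 11.7 times as high in cluster 47, and Cyp2a5, a cytochrome P450, had 416 UMIs in cluster 47 and 30 in cluster 42. Aldh3a1, an aldehyde dehydrogenase, was 5.82 times as high. Ltf, the iron-binding lactoferrin, was 44.6 times as high, and Pigr, which carries immunoglobulin A across epithelium, 3.68 times. Spdef, a factor of goblet cells, had 24 UMIs in cluster 47 and 10 in cluster 42, a ratio of 6.05. Hp, haptoglobin, was lower, with a ratio of 0.371, as was Nkx2-1, a factor of lung epithelium, with 0.475. Unlike the 8, these genes were open to the clustering that made the clusters. Cyp2a5, Ltf and Pigr are among the leading genes of cluster 47, and Hp and Pigr among those of cluster 42. Pigr and Spdef were naming markers. Their differences may thus be set in part by how the clusters were made. The values are those of 21 and 56 cells, with no test.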
